A study of Rattus norvegicus with 24 samples.

Results

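The ubiquitin-conjugating enzymes on the array are described here in rat whole blood, leaving out Ube2c. Members were the gene names that begin with Ube2 on the non-control probes, 30 of the 21654 gene names on the array, and each was read from its brightest probe in Cy3. Gene expression was measured on 24 two-colour Agilent SurePrint G3 Rat arrays, 4 for each of 6 groups. Each array set the RNA of 1 blood sample (Cy3) against a common pool of rat blood RNA (Cy5), so every level below is a log2 ratio to that pool, called the log2 ratio. The dyes follow the sample labels, and the study's methods name them the other way round, which would turn the sign of every value, exchange rises with falls and read detection in the other channel. The SD within groups was larger in Cy3 for 95.3% of 7074 probes. All rats were male Sprague Dawley, 8 weeks old when the diets started, and were fed for 6 weeks. C-G0, C-G1 and C-G2 received saline and ate a control diet, a diet with oat beta-glucan of high molecular weight or a diet with oat beta-glucan of low molecular weight. LPS-G0, LPS-G1 and LPS-G2 ate the same 3 diets and were injected with lipopolysaccharide (LPS), a component of the bacterial outer membrane, at 10 mg/kg. The injections, into the tail vein, were repeated after a week, and blood was taken after the feeding period. For LPS-G0 replicates 3 and 4 the sample titles name LPS and the inflammation label says control, and they were analysed as LPS-G0.

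Ubiquitin reaches its targets through a cascade. An E1 enzyme activates it, an E2 (ubiquitin-conjugating) enzyme carries it on a cysteine, and an E3 ligase brings the loaded E2 to the substrate. Some E2 enzymes carry related proteins in place of ubiquitin, such as SUMO, NEDD8 or ISG15. In blood the system is known for clearing proteins from maturing red cells, for relaying inflammatory signals in leukocytes and for the ISG15 conjugation that interferon switches on. In whole blood, fewer cells of a type and less RNA per cell cannot be told apart.

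The Cy3 signal was well above background on each of the 24 arrays for 19 of the 30 members. On each array 19 to 26 members were above it. Ube2t, a DNA repair E2, Ube2v2, a partner of Ube2n, and the little studied Ube2q2l and Ube2ql1 were above background on 0 arrays by their brightest probes, and a second Ube2v2 probe on 1. The brightest probe of Ube2k, which builds degradation chains, was above background on 1 array (a dimmer one on 5), and of the others that of Ube2d1 on 3, Ube2l3 on 5, Ube2w on 10, Ube2q2 on 18, and Ube2e3 and Ube2q1 on 21 each. The 22 members that passed the filter (well above background on all 4 arrays of at least 1 group) were tested among 7946 genes in the fit of 4 groups and 8263 in the fit of 6. Ube2e3, Ube2q1 and Ube2q2 passed only through some of the groups. Within groups the tested members had a median SD of 0.28 on the log2 scale, against 0.32 over all genes tested. The SD ran from 0.19 for Ube2d4 to 0.61 for Ube2l6.

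**Figure D1:**
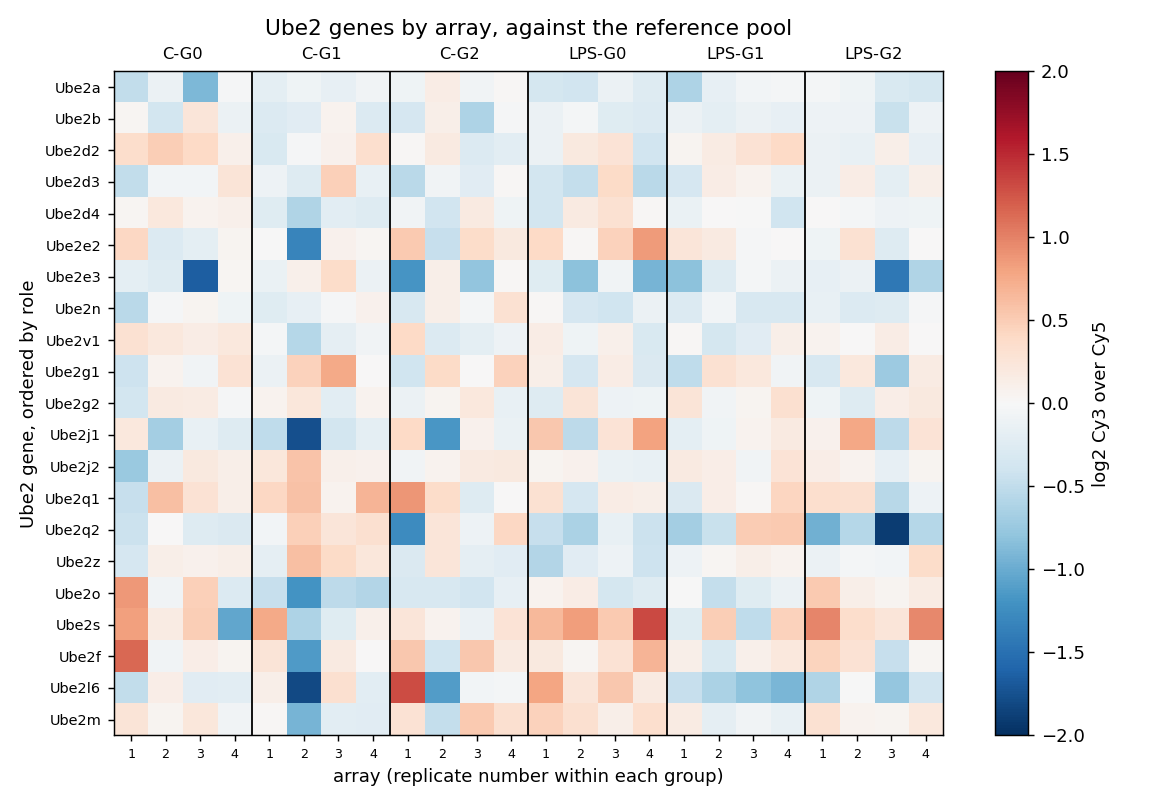
Log2 Cy3 over Cy5 (colour) of 21 of the 22 tested Ube2 genes (rows, ordered by role) on the 24 arrays (columns, 4 per group). Ube2l6 is red on all 4 LPS-G0 arrays and blue on all 4 LPS-G1 arrays, and C-G1 replicate 2 has the lowest Ube2l6 value, -1.80.

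Ube2l6, the E2 that carries ISG15, was the one member called in any of the 8 comparisons. It fell in LPS-injected rats on the high molecular weight beta-glucan, to 2.20-fold below LPS-injected rats on the control diet. The study itself named Ube2l6 from these arrays, so the call is not independent of its choice. Its probe lies on chromosome 3 at chr3:68016268-68016327 (rn4, plus strand), at position 1347 of the transcript NM_001024755. The promoter of Ube2l6 is shown as sequence context for this gene. It is the stretch of 250 bases before the start in RefSeq (GRCr8, chr3:90279455-90279704, plus strand), with every GAAA in capitals on either strand (TTTC on the other), the core of the elements that interferon-activated factors bind.

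Ube2l6 promoter: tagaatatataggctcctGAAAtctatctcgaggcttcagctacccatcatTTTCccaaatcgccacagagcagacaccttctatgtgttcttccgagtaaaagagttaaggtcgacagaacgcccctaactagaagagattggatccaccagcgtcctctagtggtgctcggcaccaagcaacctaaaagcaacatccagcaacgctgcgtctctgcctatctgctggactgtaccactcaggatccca

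The stretch held 2 such cores, as a description of its letters, and 87.3% of the 33469 RefSeq promoters of that length held at least 1. The longer interferon element, GAAA followed by any 2 bases and GAAA again, was not among its letters and was in 3.41% of all promoters, searched on both strands. The STAT element TTCNNNGAA was also not found in it and was in 7.67% of all promoters. Among the 26 promoter entries that matched a member by symbol, Ube2d3 held the former and Ube2s the latter.

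In LPS-G1 the Ube2l6 log2 ratios were -0.47, -0.64, -0.80 and -0.91 in replicates 1 to 4. In LPS-G0 they were 0.79, 0.24, 0.55 and 0.17. The 2 groups did not overlap, and every LPS-G0 array was above 0 and every LPS-G1 array below it. The means were -0.70 ± 0.19 (SD, n = 4) and 0.44 ± 0.29. The log2 difference was -1.14 (SE 0.19, 95% confidence interval -1.55 to -0.73), with a limma adjusted p of 0.0289, and the exact permutation test gave 0.0286, the smallest p that 4 against 4 arrays allow. The log2 difference was -0.98, -1.26 and -1.09 within the 3 slides. The call did not hold without LPS-G0 replicate 1 (adjusted p = 0.0880) or 4 (0.0802), without LPS-G1 replicate 2 (0.0928), 3 (0.0598) or 4 (0.104), or without both arrays of conflicting labels (0.127), while the log2 difference stayed between -1.25 and -0.86 under every alternative run.

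One of 22 tested members (4.55%) was called in LPS-G1 vs LPS-G0, against 9.36% of all genes tested and 8.75% of all genes called lower. At 2-fold or more the member count was also 1, against 1.03% of all genes. At an unadjusted p under 0.05 there were 4 members (18.2%), against 28.3% of all genes. The groups did not overlap for Ube2l6, Ube2s and Ube2z, 3 of 22 (13.6%), against 23.1% of all genes. With 1 member called, no share of calls can be read as particular to the Ube2 genes.

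LPS alone went the other way for Ube2l6 in the rats on the control diet, without a call. In C-G0 the log2 ratios were -0.49, 0.14, -0.22 and -0.21, below every LPS-G0 array. The log2 difference of LPS-G0 against C-G0 was 0.63 (SE 0.19, unadjusted p = 0.00461, limma adjusted p = 0.218, exact permutation p = 0.0286). On the low molecular weight beta-glucan, the LPS-G2 arrays gave -0.60, -0.01, -0.77 and -0.38, again below every LPS-G0 array. The log2 difference of LPS-G2 against LPS-G0 was -0.88 (SE 0.19, unadjusted p = 0.000296, limma adjusted p = 0.597). These 3 comparisons share the LPS-G0 arrays. In the rats that ate beta-glucan without LPS, Ube2l6 spread widely, from -1.80 to 0.32 in C-G1 and from -1.12 to 1.30 in C-G2, and both ranges enclosed that of C-G0. On these diets the LPS difference of Ube2l6 had the opposite sign, -0.31 for LPS-G1 against C-G1 and -0.46 for LPS-G2 against C-G2, neither called. Set against the response on the control diet, these responses differed by -0.94 (limma unadjusted p = 0.106) and -1.10 (0.0622), also without a call.

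**Figure D2:**
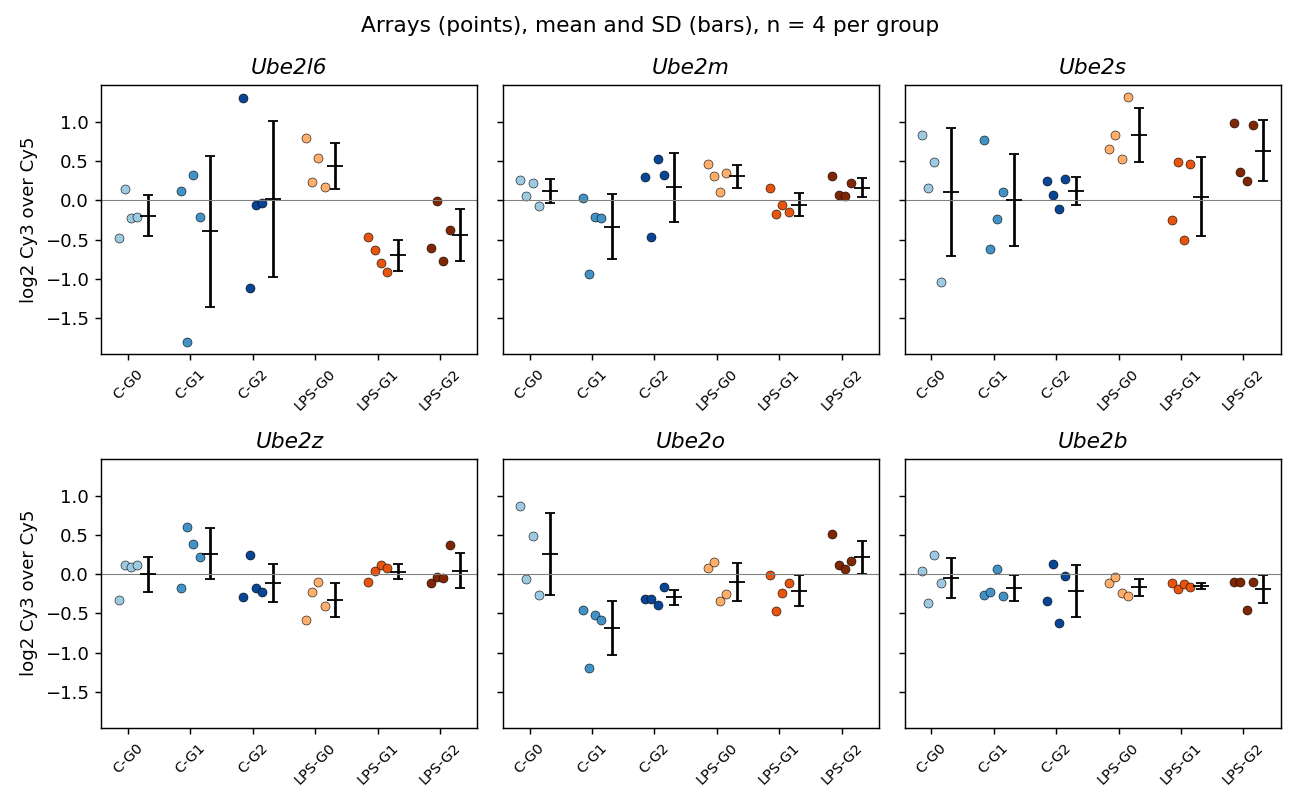
Log2 Cy3 over Cy5 of 6 Ube2 genes on each array (points) by group, with the mean and SD (bars, n = 4). The Ube2l6 points of LPS-G1 (-0.91 to -0.47) lie below all those of LPS-G0 (0.17 to 0.79), and those of C-G1 and C-G2 are far apart within their group.

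Isg15, the modifier that Ube2l6 carries, had a log2 difference of 1.01 between LPS-G0 and C-G0, and of -1.05 for LPS-G1 and -0.96 for LPS-G2, each set against LPS-G0, none past the adjusted threshold (limma adjusted p = 0.300, 0.146 and 0.597). Uba7, the E1 enzyme of ISG15, had -0.07, 0.08 and -0.12 in the same comparisons (adjusted p from 0.789 to 0.875). Without LPS, Isg15 differed from C-G0 by 0.71 in C-G1 and by 1.16 in C-G2, also without a call. Ube2l6 differed by -0.20 and 0.22 there. Irf7, which switches on the interferon genes, fell in LPS-G1 vs LPS-G0 by 1.14 on the log2 scale (adjusted p = 0.0289). The interferon response list did not fall as a whole. Of its 12 tested genes 1 was called lower and 4 were below 0, with a median log2 difference of 0.20, against 0.07 over all genes. Its level per array ran from -0.56 to -0.18 in LPS-G0 and from -0.26 to -0.06 in LPS-G1, and Oas2 and Ifih1 were above background on 0 arrays.

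The E2 enzymes of NEDD8 are Ube2m and Ube2f, which load it onto cullin ligases. Ube2m had log2 ratios of 0.46, 0.31, 0.11 and 0.34 in LPS-G0 and 0.16, -0.17, -0.06 and -0.15 in LPS-G1. The groups overlapped by 1 array on each side. The log2 difference was -0.36 (SE 0.13, unadjusted p = 0.0148, limma adjusted p = 0.0964), and it passed the threshold with array weights (adjusted p = 0.00823) and with normexp and loess (0.0461). Ube2f differed by -0.27 (adjusted p = 0.493). Of 9 tested genes of the NEDD8 and cullin list, 0 were called in LPS-G1 vs LPS-G0, 1 had an unadjusted p under 0.05, and the median log2 difference was 0.14.

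Ube2s extends ubiquitin chains for the anaphase-promoting complex in mitosis. It had the largest log2 difference in LPS-G0 vs C-G0 among the tested members, 0.72 (SE 0.34, adjusted p = 0.331), with log2 ratios of 0.65, 0.83, 0.52 and 1.31 in LPS-G0. The 4 C-G0 arrays ran from -1.05 to 0.83 and overlapped them. In LPS-G1 the log2 ratios were -0.25, 0.49, -0.51 and 0.46, all below the LPS-G0 arrays. The log2 difference was -0.78 (SE 0.34, unadjusted p = 0.0367, limma adjusted p = 0.158, exact permutation p = 0.0286). The 6 tested genes of the cell division list were all below 0 in LPS-G1 vs LPS-G0, against 43.8% of all genes. Their median log2 difference was -0.53, and 0 were called. At an unadjusted p under 0.05, 3 of them were lower, against 19.9% of all genes. In C-G1 vs C-G0 all 6 were below 0 too (47.5% of all genes), with a median of -0.59, while Ube2s differed by -0.11. In LPS-G0 vs C-G0 their median was 0.15. The part of the cell division genes in the Ube2s values was not tested.

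**Figure D3:**
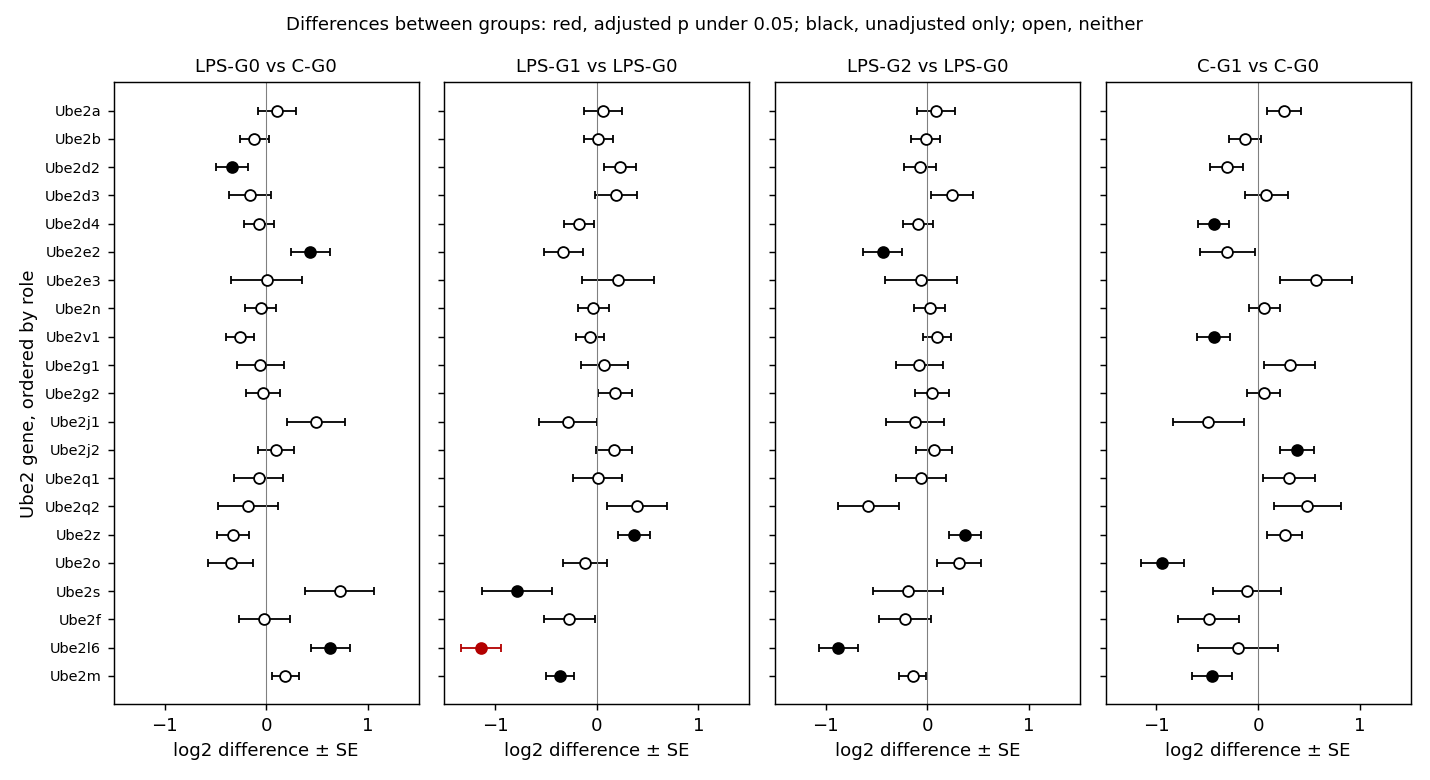
Log2 difference ± SE (x axis) of 21 of the 22 tested Ube2 genes (rows) in 4 comparisons. Red marks an adjusted p under 0.05, filled black an unadjusted p under 0.05 and open neither. Ube2l6 in LPS-G1 vs LPS-G0, at -1.14, is the one red point.

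Among the E2 enzymes of ubiquitin itself, most differences lay near 0. Ube2b, the RAD6 enzyme of DNA damage tolerance, differed by -0.12 between LPS-G0 and C-G0, and by 0.02 for LPS-G1 and -0.02 for LPS-G2 against LPS-G0. Ube2n, which builds the lysine-63 chains of inflammatory signalling, differed by -0.05, -0.04 and 0.02 in the same order. Neither was past even the unadjusted threshold, and their levels in LPS-G1 ran from -0.20 to -0.12 for Ube2b and from -0.32 to -0.06 for Ube2n. Ube2z, which Uba6 charges, was higher in LPS-G1 than in LPS-G0 on every array, -0.0956 to 0.114 against -0.585 to -0.0971, so that the nearest arrays all but met, without a call (log2 difference 0.36, SE 0.16, unadjusted p = 0.0331, limma adjusted p = 0.15). Ube2q2 had the largest difference upwards in that comparison, 0.39, but its probe passed the filter only through LPS-G1, the group where it is high, so its test is not used.

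Ube2v1, the partner of Ube2n in lysine-63 chains, has 5 probes, and they disagreed. All 5 were above background on all 24 arrays. In LPS-G1 vs LPS-G0 the brightest differed by -0.07 (adjusted p = 0.757), and the next by brightness by -0.47 (adjusted p = 0.157). The following ones gave -0.58 (adjusted p = 0.0454), -0.63 (adjusted p = 0.0625) and -0.26 (adjusted p = 0.573). One of the 5 was thus called, and it is not the probe that represents the gene. The mean of the probes gave -0.40 (adjusted p = 0.126). In LPS-G0 vs C-G0 the brightest probe was lower by 0.26 and the other 4 were higher, by 0.23 to 0.37. As its probes disagreed, the level of Ube2v1 is uncertain. The RefSeq table lists 19 Ube2v1 pseudogenes, 9 of Ube2n and 4 of Ube2s. Whether their transcripts bind the probes of these genes was not tested.

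Ube2d1 and Ube2k, both named by the study from these arrays, had probes too dim in Cy3 to compare, while their Cy5 signal was above background on all 24 arrays. Ube2d1 was above background on 0 of the 8 LPS-G0 and LPS-G1 arrays, with log2 ratios from -2.55 to -1.29 and from -0.42 to 0.12, and no fold is given. Ube2k was above it on 0 of the 8 too, with -1.97 to -0.89 and -0.44 to 0.03. A second probe of Ube2k, also too dim to be tested, differed with the opposite sign. Ube2l3, which serves HECT and RBR ligases, was above background on 1 LPS-G1 array and 0 of the LPS-G0 arrays. No fold is given for it either.

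Counts in LPS-G0 vs C-G0 were small throughout. Limma called 0 of 22 members at an adjusted p under 0.05, against 0.0126% of all genes. At an unadjusted p under 0.05 there were 3, Ube2d2 lower by 0.34 and Ube2e2 and Ube2l6 higher by 0.43 and 0.63, against 15.4% of all genes. The groups did not overlap for Ube2l6 and Ube2v1 (9.09%), against 5.06% of all genes. In LPS-G2 vs LPS-G0 limma called 0 members and 0% of all genes, and 3 members, Ube2e2, Ube2l6 and Ube2z, had an unadjusted p under 0.05 (8.83% of all genes). Ube2l6 was the one member whose groups did not overlap there, against 11.1% of all genes. In LPS-G2 vs LPS-G1 the count was 0 against 0%. The member count at an unadjusted p under 0.05 was 1, Ube2q2, against 6.98% of all genes, and since it passed the filter only through LPS-G1 its difference, -0.98, is given without a test. Ube2s had the largest rise there, 0.59 (adjusted p = 0.679). The Ube2q2 probe was above background on 2 of the 4 LPS-G2 arrays, and its difference was -0.22 with normexp and loess. One-way analysis of variance with Tukey's test called 0 members in each of the 8 comparisons.

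Without LPS, the largest difference among the tested members lay in Ube2o, a large E2 that acts as its own ligase and removes ribosomal proteins from maturing red cells. In C-G1 the log2 ratios were -0.46, -1.20, -0.52 and -0.58, all below those of C-G0, 0.87, -0.07, 0.48 and -0.27. The log2 difference was -0.94 (SE 0.21, unadjusted p = 0.000174, limma adjusted p = 0.104, exact permutation p = 0.0286). With the replicate number as a block the adjusted p was 0.0421, though the numbers are not known to pair the arrays. Within the 3 slides it was -0.86, -1.34 and -0.31. A second, dimmer Ube2o probe gave -0.85 (unadjusted p = 0.00972). Without C-G0 replicate 4 the difference was -1.12 (adjusted p = 0.00521), and without both C-G0 replicate 1 and C-G1 replicate 2 it was -0.57 (adjusted p = 0.711). C-G2 was lower than C-G0 by 0.55 (SE 0.21, adjusted p = 0.277), with arrays from -0.39 to -0.16. After LPS the order was not the same, as Ube2o had means of -0.10 ± 0.24 (SD, n = 4) for LPS-G0, -0.21 ± 0.20 for LPS-G1 and 0.21 ± 0.21 for LPS-G2.

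Limma called 0 of 22 members in C-G1 vs C-G0, against 0.0242% of all genes. At an unadjusted p under 0.05 there were 6 (27.3%), against 27.7%. Among these, Ube2o, Ube2d4, Ube2m and Ube2v1 were lower and Ube2j2 higher. The largest rise, 0.57 for Ube2e3, had an adjusted p of 0.270. Its probe was above background on 3 of the 4 C-G0 arrays and on all 4 C-G1 arrays. C-G0 replicate 3, at -1.65, was the array not above it, and the difference went down to 0.17 under the alternatives. The groups did not overlap for Ube2d4, Ube2o and Ube2v1 (13.6%), against 7.07% of all genes. The accession of the Ube2d4 probe is named Ube2d2b in the RefSeq table. In C-G2 vs C-G0 limma called 0 members against 0.0242%, and 4 had an unadjusted p under 0.05 (12.1% of all genes), among them Ube2d2 and Ube2o lower and Ube2a higher. The Ube2a difference there, 0.39, was 0.10 with normexp and loess, and a second, dimmer Ube2a probe gave 0.24. In LPS-G1 vs C-G1 limma called 0 against 0.0121%, with 2 members, among them Ube2o, at an unadjusted p under 0.05 (2.98% of all genes) and the largest rise, 0.70, in Ube2j1 (adjusted p = 0.950). In LPS-G2 vs C-G2 limma called 0 against 0%, with Ube2o, 0.51, and Ube2q2, -0.82, at an unadjusted p under 0.05 (1.06% of all genes). The Ube2q2 probe was above background on 3 of the 4 C-G2 and 2 of the 4 LPS-G2 arrays. It passed the filter through neither group, so its test is not used, and its difference was -0.17 with normexp and loess. The largest rise there, 0.52, was in Ube2s (adjusted p = 1.00).

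The LPS responses on the beta-glucan diets were also set against the response on the control diet. Limma called 0 members for either diet, and 0% of all genes. Ube2o had the smallest unadjusted p for both, with differences of 0.83 (SE 0.30, unadjusted p = 0.0106) for G1 and 0.86 (SE 0.30, unadjusted p = 0.00825) for G2. The adjusted p were 0.999 and 0.832. Both differences subtract the same response of the LPS-G0 and C-G0 arrays, so they are not independent of each other. For G1 the unadjusted count was 3, among them Ube2d2 (2.97% of all genes), and for G2 it was 1 (5.11%).

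The levels of red cell genes are given beside these members. The erythroid list (19 tested genes) had a median log2 difference of -0.79 in C-G1 vs C-G0, with 17 below 0, against 47.5% of all genes. At an unadjusted p under 0.05, 11 were lower, against 15.4% of all genes, and 0 were called. In LPS-G1 vs LPS-G0 the median was -0.20, and 4 of 19 were called lower, Epb42, Klf1, Hemgn and Trim10, against 8.75% of all genes. Within groups, 6 of 22 members followed the level of this list on the array with a positive slope at an adjusted p under 0.05 (limma, 24 arrays), against 18.8% of all genes with a positive and 25.2% with any such slope. The slopes in log2 per log2 were 1.28 (SE 0.25) for Ube2f, 1.21 (SE 0.42) for Ube2l6, 1.18 (SE 0.36) for Ube2j1, 0.97 (SE 0.26) for Ube2e2, 0.72 (SE 0.21) for Ube2o and 0.69 (SE 0.19) for Ube2m. C-G1 replicate 2, with a list level of -1.30, and C-G0 replicate 1, with 0.43, lay farthest from the other arrays, and without these 2 the count was 0. The slopes were then 0.94 for Ube2f, 0.81 for Ube2j1, 0.63 for Ube2l6, 0.63 for Ube2m, 0.48 for Ube2o and 0.08 for Ube2e2. With slide as a further term Ube2l6 (adjusted p = 0.109) and Ube2m (0.0523) were not called. The erythroid level ran from 0.02 to 0.27 in LPS-G0 and from -0.33 to -0.0031 in LPS-G1, and its part in the Ube2l6 difference was not tested.

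**Figure D4:**
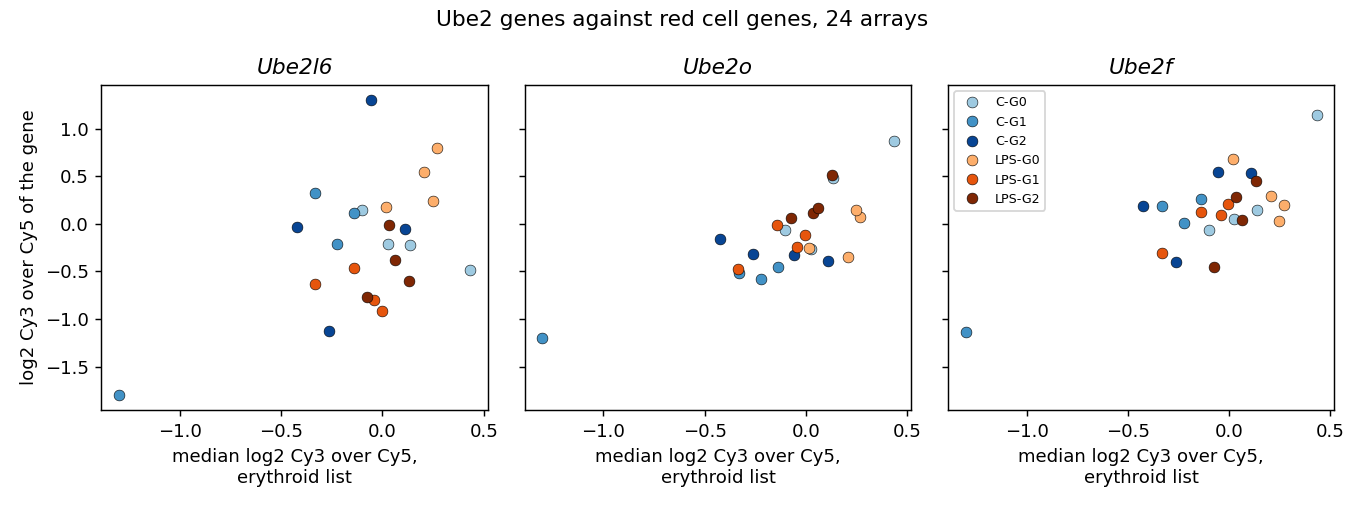
Log2 Cy3 over Cy5 of Ube2l6, Ube2o and Ube2f (y axis) against the median log2 Cy3 over Cy5 of the erythroid list (x axis) on the 24 arrays, coloured by group. C-G1 replicate 2, at -1.30 on the x axis, lies far from the other arrays in each panel.

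On the T cell list 2 members were called, Ube2j2 with a slope of 0.59 (SE 0.14) and Ube2f with -0.87 (SE 0.29), against 16.7% of all genes, and the same 2 arrays are the farthest from the others on that list, with a count of 0 without them. No member followed the neutrophil list (0 of 22 at an adjusted p under 0.05, against 0.145% of all genes at that threshold, and 0 at an unadjusted p under 0.05). On the interferon list limma called 0 members at an adjusted p under 0.05, against 1.93% of all genes. The slope of Ube2l6 was 0.63 (SE 0.54, limma adjusted p = 0.421).

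Other genes of the cascade are given here for the E1, ubiquitin and CTLH lists only. Of 7 tested E1 genes, 0 were called in LPS-G1 vs LPS-G0 and all 7 were above 0, while 43.8% of all genes were below 0. The median log2 difference of the E1 genes was 0.29, against 0.07 over all genes. Of the 4 ubiquitin genes 0 were called, with a median of -0.11. Of the CTLH ligase subunits, which work with Ube2h in red cells, 0 of 6 were called, with a median of -0.06. Ube2h itself is under no such gene name on the array and was not analysed here.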

How the data were processed

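24 samples of whole blood RNA were hybridised on 3 slides of 8 arrays, each slide with all 6 groups. The authors extracted the intensity values with Agilent Feature Extraction, version 10.10.1.1 per the file headers and 10.7.3.1 per the submitters' processing notes, which subtracted background and balanced the dyes by Lowess. The deposited log10 ratio is Cy5 over Cy3. It was turned to log2 Cy3 over Cy5, control and outlier spots were left out and spots of a probe were averaged. The study's methods name the dyes the other way round. The labels' direction was used, as the SD within groups was larger in Cy3 for 95.3% of 7074 probes. Cy3 was also the channel with fewer probes above background, with a median of 11152.5 per array against 17104 in Cy5. Whether this accounts for the larger SD was not tested, so the SD alone does not settle the direction. The series table held the same values. Probes well above background in Cy3 ranged from 7786 to 15385 per array, and the number of arrays limits the precision.

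Probes above background on all 4 arrays of a group were tested (10313 in the fit of 4 groups, 10708 in that of 6) with limma 3.58.1 in R 4.3.3, with Benjamini-Hochberg adjustment over all of them and a threshold of 0.05. The fit of 16 arrays (C-G0 and the LPS groups) gave 4 comparisons, and the fit of 24 arrays the other 4, the differences between LPS responses and the slopes on marker lists. Single values were tested by two-sided exact permutation. The tests were checked on simulated data. The labels call the arrays biological replicates, and the methods state for C-G0 and the LPS groups that each held the RNA of a single rat. For C-G1 and C-G2 this is not stated, and p-values there measure the spread between these samples. Genes named were those called, the largest rise and fall of each comparison and members fixed by role. Members and lists were chosen with earlier results of these data known. Alternatives changed the normalization, filter, model, probe rule, block and arrays used. Of the members, 25 accessions and 29 symbols matched the RefSeq table. The values of 1 tested member are not reported here, and it stays in the counts.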

Additional observations from a re-analysis of the deposited data

Results flagged for a closer look

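In 8 of the 132 groups of 4 arrays formed by the 22 tested members, 1 array lay far from the other 3 by Dixon's test, a share of 6.06%, where chance flags about 1 in 20. Ube2b was 0.0633 (log2 ratio) in C-G1 replicate 3, against -0.28 to -0.23 in the other 3 arrays, and -0.45 in LPS-G2 replicate 3, against -0.11 to -0.09. Ube2d4 was -0.60 in C-G1 replicate 2, against -0.26 to -0.21. In the same array Ube2e2 was -1.32, against -0.01 to 0.08, and Ube2o -1.20, against -0.58 to -0.46. Ube2f was 1.14 in C-G0 replicate 1, against -0.06 to 0.14, and Ube2z was -0.33 there, against 0.09 to 0.12. Ube2z was 0.37 in LPS-G2 replicate 4, against -0.11 to -0.04.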

How the results depend on the processing

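In LPS-G1 vs LPS-G0, 1 Ube2 gene was called. The count was 0 with all 24 arrays in the fit, with the Cy3 channel alone, without the filter on dim probes, by analysis of variance with Tukey's test and with LPS-G0 replicates 3 and 4 left out. It was 2 with normexp and loess (Ube2l6 and Ube2m), 3 with array weights (Ube2l6, Ube2m and Ube2z) and 2 without C-G0 replicate 1 and C-G1 replicate 2, an alternative chosen after seeing the data. Leaving out 1 array at a time gave 0 to 2, with 0 without LPS-G0 replicate 1 or 4 or LPS-G1 replicate 2, 3 or 4. For Ube2l6 the adjusted p was 0.114 with 24 arrays, 0.118 with Cy3 alone, 0.0843 without the filter and 0.149 by Tukey's test, and the log2 difference lay between -1.25 and -0.86. In C-G1 vs C-G0, 0 were called, and leaving out 1 array gave 0 to 2 (2, among them Ube2o, without C-G0 replicate 4). The counts of the other comparisons and of the LPS responses stayed at 0 under every alternative run.

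With the replicate number as a block (replicate block), 1 gene was called in C-G1 vs C-G0, Ube2o (adjusted p = 0.0421), and the count of erythroid and of T cell slopes fell to 0. Ube2l6 had an adjusted p of 0.0120 in LPS-G1 vs LPS-G0. After removal of group means the correlations of same-numbered arrays ran from -0.257 to 0.538. They averaged 0.329 in C-G2 vs C-G0, the highest of the 8 comparisons, and -0.05 in LPS-G1 vs LPS-G0. No comparison had all pairs over 0.1, so the numbers were not taken to pair the arrays. The erythroid count, 6, was 12 without the group term and 0 without the 2 farthest arrays. The T cell count, 2, was 1 with slide beside group, 4 without the group term and 0 without the 2 farthest arrays. The interferon count, 0, was 10 without the group term. The cause was not tested in these cases.

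Of 2311 alternative values of 71 gene results, 10 lost the call and 7 gained one. A further 10 moved by more than the spread between replicates without crossing the threshold. With a call on either side, 0 reversed their sign, and the other 2284 did none of these. Changes of sign between values that were not called do not count as reversals here. Ube2s in LPS-G1 vs C-G1, for example, changed sign under 7 alternatives, with values from -0.21 to 0.30. Probes near background, such as those of Ube2d1, Ube2k and Ube2l3, limit what can be measured of these genes.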
